A study of Mus musculus with 8 samples.

Results

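The 9 genes described here, Dcn, Lum, Ogn, Omd, Fmod, Prg4, Col1a1, Col1a2 and Col3a1, encode proteins of the fibrous extracellular matrix that fibroblasts of the meninges make. They were found by their name in the array files, among 23435 genes with a tested probe, and had been selected on their wide spread between animals and their co-variation in earlier results of the same arrays. The spread between animals and the correlations between the genes are therefore given as a description, without a test. RNA came from the medial prefrontal cortex (mPFC) of 8 adult male mice of the inbred C3H/HeN strain, with 1 single-colour Agilent array for each animal. The 4 MS mice had gone through maternal separation (MS) from postnatal day 2 to postnatal day 14, during which their dams were exposed to unpredictable stress, and the 4 control mice had not. Mice of both groups were weaned at postnatal day 21, carried out operant tests for palatable food as adults, and were deprived of food before they were killed. The comparison asks whether early separation leaves a difference in these genes in the adult mPFC. The labels give each array as a separate individual, and animals are named here by their group and number, so that MS 5.3 is the MS mouse numbered 5.3.

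The brain is wrapped in meninges, and the inner layers, the arachnoid and the pia, contain fibroblasts that follow the surface of the cortex and accompany vessels into it. These fibroblasts secrete fibrillar collagens, which form the fibres of the membrane, and small leucine-rich proteoglycans, which bind collagen fibrils and set their diameter and spacing. In a sample of bulk tissue, fewer cells of a type and less RNA per cell cannot be told apart.

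Levels are on the log2 scale, as processed spot signal relative to the 75th percentile of its array, so that 0 is the brightness below which 75% of the probes of that array lie. The 75th percentile ranged from 588 to 892 between arrays, 62.5% to 69.7% of spots were well above background, and 0 spots were saturated. All 8 arrays lay on 1 slide, with 2 control and 2 MS arrays in each of its 2 rows. The 10 listed markers of cortical neurons all had signals well above background in each of the 8 animals. Control 8.4 stood apart from the other animals in genes of neighbouring regions, with a score of 1.26 for striatal neuron genes and 2.69 for olfactory bulb genes (mean log2 deviation from the mean of the 8 animals). The levels of the matrix genes in control 8.4 lay within those of the other animals for all members except Prg4, for which it was the highest.

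Each member was read by 1 probe of 60 bases, printed once on the array, except Prg4, which had 2. Of these 10 probes, 9 were tested. The second Prg4 probe was left out because it was well above background on 2 of 8 arrays, MS 7.6 and control 8.4, and on no other. The last 30 of the 60 bases of each tested probe are shown, because the probe sequences, not the gene symbols, are what the arrays measured. Capitals mark runs of 4 or more adenines.
Dcn: gccattcaacttggaaactacaagtaaccc
Lum: tttcttgagtcattttcctctgtcatgtgt
Ogn: aactattgctctaataatgtcaactagctc
Omd: tgAAAAtggctttacttcataagcttagag
Fmod: agcctctgctcatcctttggtctagtatga
Prg4: agtcatcAAAAtgaaatgaagAAAAcagtg
Col1a1: gtgcattcaaccttaccAAAAAAgAAAAAA
Col1a2: tctgtttcaaataagtgaactcaacctaaa
Col3a1: acAAAAAccacatccatgtgttcatcttgt
Over all 60 bases the Col1a1 probe had the highest adenine content of the 9, 51.7%, and the Lum probe the lowest, 20.0%.

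Decorin (Dcn) and lumican (Lum) are small leucine-rich proteoglycans that bind fibrillar collagen, and their genes lie next to each other on chromosome 10. The Dcn probe lies at chr10:96980233-96980292 and the Lum probe at chr10:97035210-97035269 (build mm9, plus strand). The level of Dcn was 0.93 in control 6.2, 1.28 in control 8.2, 1.1 in control 8.4 and 0.79 in control 8.5, and -0.14 in MS 5.3, 1.78 in MS 7.1, 0.26 in MS 7.2 and 1.25 in MS 7.6. The controls were close together, and the MS mice lay on both sides of them, with MS 5.3 and MS 7.2 below every control and MS 7.1 above. Dcn had 1.02 ± 0.21 in controls and 0.79 ± 0.88 in MS mice (SD, n = 4 each), a log2 difference of -0.24 with a 95% confidence interval from -1.10 to 0.63 (limma, adjusted p = 0.9996). The level of Lum was -2.53, -2.47, -2.20 and -2.67 in controls 6.2, 8.2, 8.4 and 8.5, and -3.58, -1.72, -3.09 and -2.32 in MS 5.3, 7.1, 7.2 and 7.6. Its animals took the same places as for Dcn at both ends, with MS 7.1 highest and MS 5.3 lowest, and the groups overlapped. Lum differed by -0.21 (95% confidence interval -1.02 to 0.60; limma, adjusted p = 0.9996). From the lowest to the highest animal Dcn spanned 3.79-fold and Lum 3.64-fold.

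Osteoglycin (Ogn) and osteomodulin (Omd) are proteoglycans of the same family, first known from bone, and their genes are neighbours on chromosome 13. The Ogn probe lies at chr13:49719549-49719608 and the Omd probe at chr13:49687847-49687906 (mm9, plus strand). The level of Ogn was -0.31, 0.34, 0.19 and -2.88 in controls 6.2, 8.2, 8.4 and 8.5, and -3.25, 0.19, -1.34 and 0.62 in MS 5.3, 7.1, 7.2 and 7.6. One animal of each group, control 8.5 and MS 5.3, lay far below the rest, and the highest animal, MS 7.6, had 14.6-fold the signal of the lowest. Ogn had -0.66 ± 1.50 in controls and -0.94 ± 1.75 in MS mice, a difference of -0.28 (95% confidence interval -2.46 to 1.90; limma, adjusted p = 0.9996). The level of Omd was -3.10, -2.99, -3.02 and -5.37 in controls 6.2, 8.2, 8.4 and 8.5, and -6.70, -2.41, -4.43 and -2.54 in MS 5.3, 7.1, 7.2 and 7.6. The spot of MS 5.3 was not well above background, so that its level is a bound, and MS 7.1 was at least 14.2-fold higher than it, taking the lowest signal well above background on the array of MS 5.3 as the floor. The other 3 controls lay close together, and control 8.5 was the second lowest of the 8 animals. Omd differed by -0.40 (95% confidence interval -2.60 to 1.79; limma, adjusted p = 0.9996), with that spot at its measured value.

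Fibromodulin (Fmod) is a further collagen-binding proteoglycan, and proteoglycan 4 (Prg4), or lubricin, is the mucin-like glycoprotein that lubricates joint surfaces. Both genes lie on chromosome 1, far apart. The Fmod probe lies at chr1:135943998-135944057 on the plus strand, and the tested Prg4 probe at chr1:152297067-152297126 on the minus strand (mm9). The level of Fmod was -1.12, -0.66, -0.69 and -2.63 in controls 6.2, 8.2, 8.4 and 8.5, and -3.41, -0.58, -1.91 and -0.23 in MS 5.3, 7.1, 7.2 and 7.6. The order was nearly that of Ogn, with the same 3 animals at the low end, and the highest animal had 9.07-fold the signal of the lowest. Fmod differed by -0.26 (95% confidence interval -1.88 to 1.37; limma, adjusted p = 0.9996). The level of Prg4 was -1.38, -1.53, -0.82 and -6.07 in controls 6.2, 8.2, 8.4 and 8.5, and -5.68, -1.26, -2.57 and -1.08 in MS 5.3, 7.1, 7.2 and 7.6. Control 8.5 was the lowest for this gene and its spot was not well above background, and MS 5.3 was close to it, while the other 6 animals lay between -2.57 and -0.82. Control 8.4 was at least 36.2-fold higher than control 8.5, against the lowest signal well above background on the array of control 8.5. Prg4 had the widest interval of the members, with a difference of -0.19 (95% confidence interval -3.24 to 2.85; limma, adjusted p = 0.9996). The untested Prg4 probe had -4.10 in MS 7.6 and -5.26 in control 8.4, where it was well above background. In the other 6 animals its spots were not well above background, with measured values from -8.25 in MS 7.2 to -6.39 in control 8.5.

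Col1a1 and Col1a2 encode the chains of collagen I, the main fibre-forming collagen, and Col3a1 encodes collagen III, which forms mixed fibrils with it. Their probes lie at chr11:94813115-94813174, chr6:4490619-4490678 and chr1:45405589-45405648 (mm9, plus strand). The level of Col1a1 was -0.90, -0.78, -0.87 and -2.07 in controls 6.2, 8.2, 8.4 and 8.5, and -2.49, -1.13, -1.90 and -0.51 in MS 5.3, 7.1, 7.2 and 7.6. The level of Col1a2 was 1.98, 2.12, 1.85 and 1.30 in the same controls, and 0.98, 2.14, 1.18 and 2.36 in the same MS mice. The level of Col3a1 was -2.15, -2.01, -2.33 and -3.29 in the controls, and -3.82, -2.45, -3.49 and -1.78 in the MS mice. For all 3 collagens MS 7.6 was highest and MS 5.3 lowest, and controls and MS mice overlapped. The highest animal had 3.95-fold the signal of the lowest for Col1a1, 2.61-fold for Col1a2 and 4.11-fold for Col3a1. The differences between groups were -0.35 for Col1a1 (95% confidence interval -1.36 to 0.66), -0.15 for Col1a2 (-0.90 to 0.59) and -0.44 for Col3a1 (-1.49 to 0.60), each with an adjusted p of 0.9996 (limma).

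**Figure D1:**
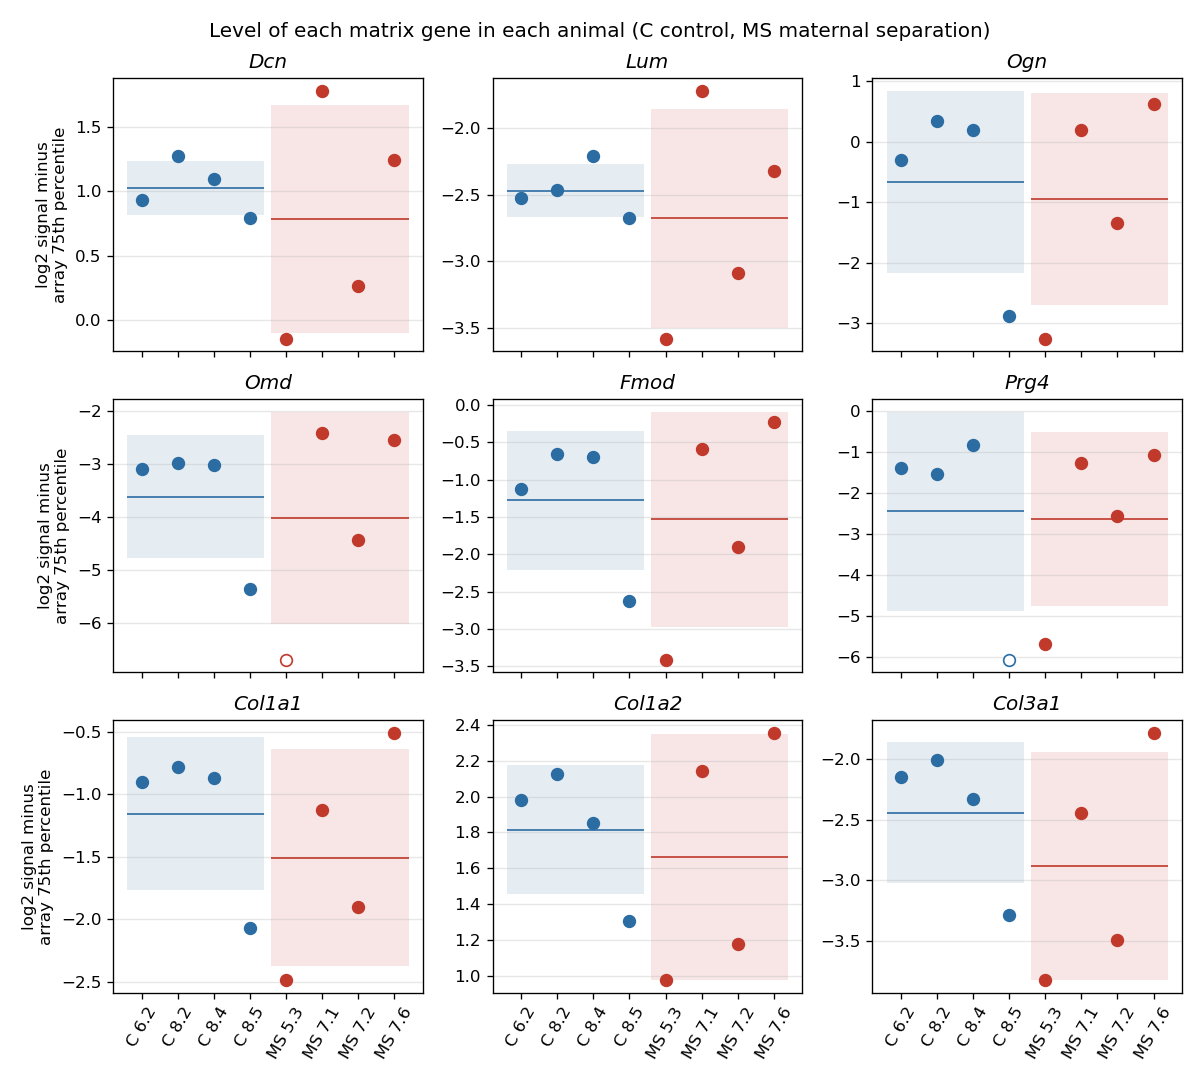
Level of each matrix gene (vertical axes, log2 signal relative to the array's 75th percentile) in each animal (horizontal axes), with controls in blue and MS mice in red, lines for group means, shaded bands for 1 SD on either side (n = 4 each) and open circles for spots not well above background. Control 8.5, MS 5.3 and MS 7.2 hold the 3 lowest places in every panel, and in every panel the groups overlap.

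The comparison of MS with control gave no call for any member. Of 34098 probes tested across the array, 0% had an adjusted p under 0.05 (limma, 0 probes, lowest adjusted p 0.9996), and 815 (2.39%) had an unadjusted p under 0.05, among them 0 of the 9 members. The groups did not overlap for 0 of 9 members and for 1.43% of all tested probes. All 9 members were lower in MS mice on average, with a median log2 difference of -0.26, beside 45.1% of all probes and a median of 0.01 over all. Since the members vary together, these directions are not separate observations, and they depended on single animals. Without MS 5.3, 2 of 9 members, Col1a1 and Col3a1, remained lower, and the median was 0.09. Without control 8.5 the median was -0.71. The confidence interval reached 0.74 to either side of the estimate for Col1a2, the member measured most tightly, and 3.05 for Prg4, beside a median of 0.27 over all tested probes. These widths are not adjusted for the number of probes, whereas a call required adjustment over all 34098. With 4 animals in each group, differences of this size and larger ones could therefore be missed.

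**Figure D2:**
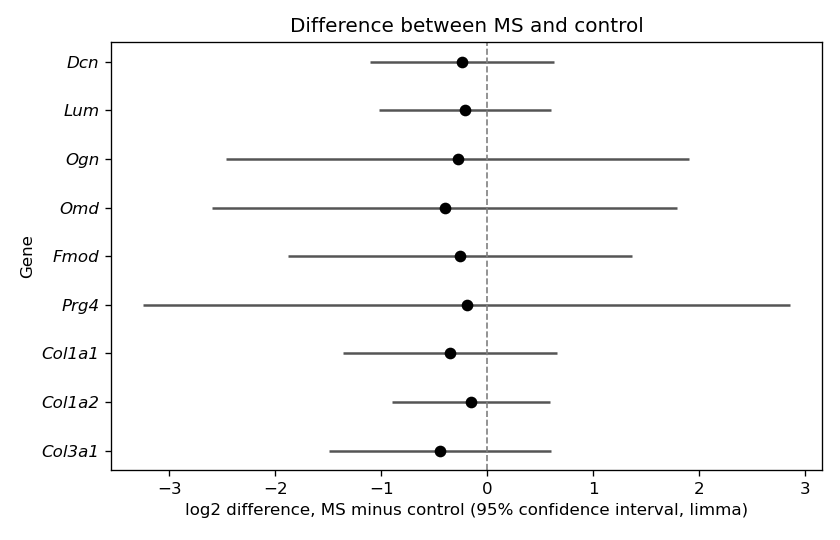
Log2 difference between MS and control (horizontal axis) for each matrix gene (vertical axis), with points for the estimate and lines for the 95% confidence interval from limma. Every interval crosses 0, from -0.90 to 0.59 for Col1a2 to -3.24 to 2.85 for Prg4.

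The spread between animals, taken as the SD over all 8, exceeded the size of the group difference for each member. This was to be foreseen, as the members had been selected on wide spread. The SD over the 8 animals was 0.51 for Col1a2, 0.57 for Lum, 0.61 for Dcn, 0.72 for Col1a1 and 0.76 for Col3a1, and 1.13 for Fmod, 1.52 for Ogn, 1.54 for Omd and 2.12 for Prg4, beside a median of 0.17 over all tested probes. An SD as large as that of Col1a2 was reached by 3.95% of tested probes, and one as large as that of Prg4 by 0.04%. A distance of 2 or more on the log2 scale between the highest and the lowest animal was found for 5 of 9 members and for 2.16% of tested probes. The error that the scanner software gives for a spot was 10% to 11.4% of the signal for the 7 members well above background on all arrays, which is small beside these distances. It reached 40.4% for the Omd spot of MS 5.3 and 28.5% for the Prg4 spot of control 8.5.

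**Figure D3:**
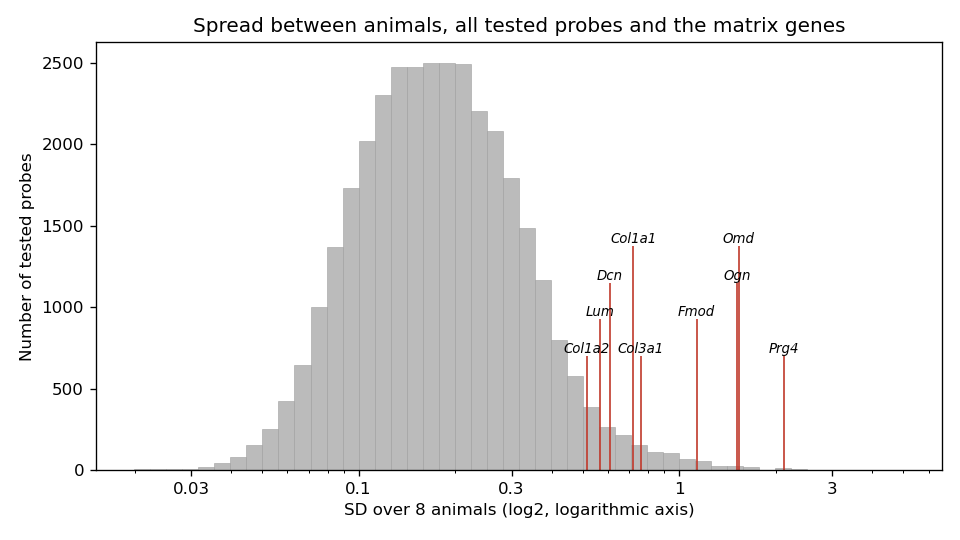
Number of tested probes (vertical axis) by SD over the 8 animals (horizontal axis, log2 values on a logarithmic axis) in grey, with red lines at the 9 matrix genes. The members lie at the right end, from 0.51 for Col1a2 to 2.12 for Prg4, while the median probe has 0.17.

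The same animals were low for every member. Control 8.5, MS 5.3 and MS 7.2 were the 3 lowest of the 8 animals for 9 of 9 members, beside 1.75% of all tested probes. Most probes varied little, and the share was higher among variable genes. Of 2031 other named genes with an SD of at least 0.3 and signal well above background in every animal, 213 (10.5%) had these 3 lowest. MS 5.3 was the lowest for 8 members and control 8.5 for Prg4. At the other end MS 7.6 was the highest for 5 members, MS 7.1 for 3 and control 8.4 for 1. A score, the mean over the 9 genes of the deviation from the mean of the 8 animals, was 0.44 in control 6.2, 0.65 in control 8.2, 0.63 in control 8.4 and -1.15 in control 8.5, and -1.73 in MS 5.3, 0.79 in MS 7.1, -0.53 in MS 7.2 and 0.92 in MS 7.6. The low end thus held animals of both groups, and so did the high end. Control 8.5 shared the number before the point with controls 8.2 and 8.4, and MS 7.2 shared it with MS 7.1 and 7.6, so animals with a common number lay at both ends. Of the 3 low arrays, those of control 8.5 and MS 5.3 were in row 1 of the slide and that of MS 7.2 in row 2. Their 75th percentiles (676, 749 and 809) and shares of spots well above background (67.0%, 65.9% and 68.5%) lay within the range of the other 5 arrays.

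The pairwise correlations of the 9 genes over the 8 animals had a median Pearson's r of 0.91, with a range from 0.67 for Dcn with Prg4 to 0.99 for Ogn with Fmod, and 19 of 36 pairs were at 0.9 or above. The values of 1 animal share the scaling of its array. The median r between genes of a list had a median of 0.32 over 18 other gene lists and was as high or nearly so in the lists of olfactory bulb (0.97), leptomeningeal (0.90), red blood cell (0.89), border macrophage (0.88) and striatal neuron genes (0.86). Without control 8.5 and MS 5.3, which was tried after the data were seen, the median over the 36 pairs was 0.86 and the lowest 0.53, for Lum with Col1a1. The genes were not interchangeable. Dcn and Lum followed each other closely (r = 0.98) and were the least like Prg4 (0.67 and 0.69). Among Ogn, Omd and Fmod r was 0.97 to 0.99, and among the collagens 0.96 to 0.99. These were not separate sets, as Col1a1 had 0.96 with Ogn and with Fmod, and Prg4 had 0.97 with Ogn.

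**Figure D4:**
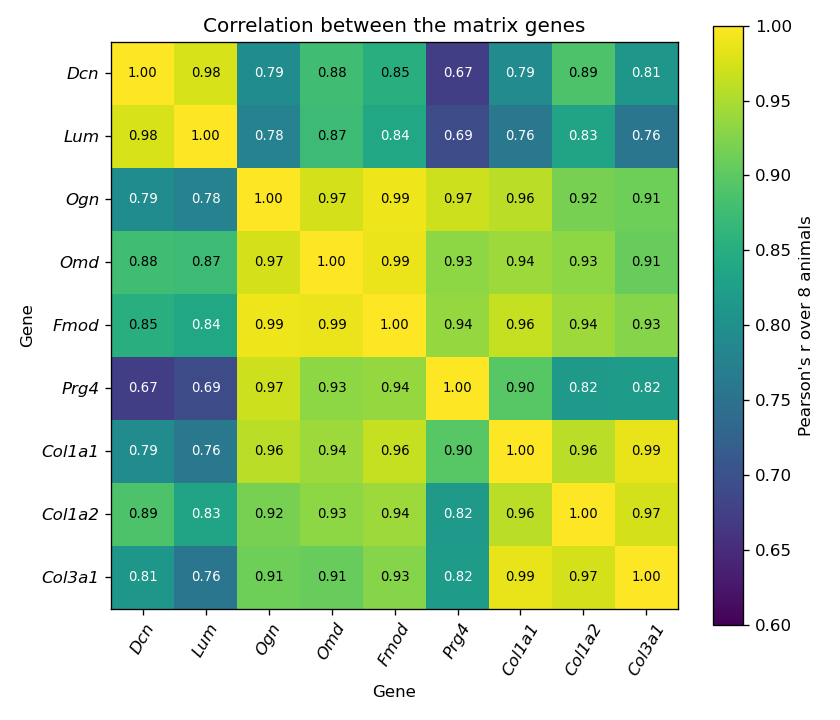
Pearson's r over the 8 animals between each pair of matrix genes (both axes), with the colour scale running from 0.6 to 1. The block from Ogn to Fmod holds values from 0.97 to 0.99, and the lowest value is 0.67, between Dcn and Prg4.

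Control 8.5 was where Dcn and Lum stood furthest from the other proteoglycans. In this animal Dcn and Lum deviated from the mean of the 8 animals by -0.11 and -0.10 on the log2 scale. Its deviation was -2.08 for Ogn, -1.55 for Omd, -1.23 for Fmod and -3.52 for Prg4. The collagens were in between, with -0.74 for Col1a1, -0.43 for Col1a2 and -0.62 for Col3a1. MS 5.3, in contrast, was low throughout, with mean deviations of -1.03 for Dcn and Lum, -2.62 for Ogn, Omd, Fmod and Prg4, and -1.03 for the collagens. In MS 7.2 these values were -0.58, -0.41 and -0.65, so that the animal was as low for Dcn and Lum as for the collagens and not lower for the widely varying proteoglycans. MS 7.1 was the highest animal for Dcn and Lum (mean deviation 0.87) and 1.13 for Ogn, Omd, Fmod and Prg4, and had 0.27 for the collagens.

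Dcn and Lum, and Omd and Ogn, are neighbouring genes in the RefSeq annotation, and their pairs had r = 0.98 and 0.97. Members on different chromosomes were as alike, with 0.99 for Ogn and Fmod and for Col1a1 and Col3a1. Of neighbours that are not members, Aspn (asporin), next to Omd, had r = -0.31 with the score of the 9 genes. The signal of Aspn was well above background in 6 of 8 animals. Col5a2 (collagen V), next to Col3a1, had r = 0.57. Since the members were chosen with their co-variation known, nothing about position can be read from these values. The promoter table of RefSeq (assembly GRCm38.p6) held 5 of the 9 genes, Omd, Ogn, Fmod, Col1a2 and Col3a1, and Dcn, Lum, Prg4 and Col1a1 are named only. The 150 bases before the start are shown for the neighbours Omd (chr13:49582312-49582461) and Ogn (chr13:49607865-49608014) and for the collagen chains Col1a2 (chr6:4505468-4505617) and Col3a1 (chr1:45311388-45311537), all on the plus strand, because each is a pair of genes whose levels had r = 0.97. Capitals mark matches, on either strand, to the TATA motif (TATAA), to the CCAAT motif and to the GC box (GGGCGG).
Omd: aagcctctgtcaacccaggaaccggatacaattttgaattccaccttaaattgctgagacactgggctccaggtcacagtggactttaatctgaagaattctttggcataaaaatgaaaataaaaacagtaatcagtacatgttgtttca
Ogn: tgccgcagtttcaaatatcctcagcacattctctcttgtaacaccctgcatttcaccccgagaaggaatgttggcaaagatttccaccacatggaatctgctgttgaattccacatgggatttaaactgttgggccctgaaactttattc
Col1a2: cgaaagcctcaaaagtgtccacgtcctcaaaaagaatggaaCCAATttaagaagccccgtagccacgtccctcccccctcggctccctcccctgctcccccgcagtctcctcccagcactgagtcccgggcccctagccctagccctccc
Col3a1: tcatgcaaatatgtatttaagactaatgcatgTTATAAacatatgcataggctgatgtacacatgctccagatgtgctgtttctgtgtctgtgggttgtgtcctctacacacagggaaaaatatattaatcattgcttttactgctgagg
Col1a2 held CCAAT 109 bases before the start, a motif found in 24.5% of the 32851 promoters over the same window. Col3a1 held TATAA 117 bases before the start, overlapping a match on the other strand, and 14.2% of promoters held this motif. The windows of Omd, Ogn and Fmod held none of these letters, and GGGCGG, present in 28.6% of promoters, was in none of the 5. A match is a description of the letters and says nothing about a factor.

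Other genes of the matrix were read from lists that were chosen with earlier results of these arrays known. Of other small leucine-rich proteoglycans 8 of 12 were tested, and 0 passed the threshold, with 6 higher and 2 lower in MS mice. Ecm2, whose gene lies in the same cluster as Omd and Ogn, had r = 0.86 with the score of the 9 genes, and the next highest was Tsku (tsukushi) with 0.38. The lowest r of the list was that of Nyx, -0.46. Biglycan (Bgn), the closest relative of decorin, had 0.28, with an SD of 0.39 and a difference of 0.24 (95% confidence interval -0.31 to 0.79). Aspn had a difference of -0.54 (95% confidence interval -1.03 to -0.04; limma, unadjusted p = 0.0373, adjusted p = 0.9996). Its signal was well above background in 6 of 8 animals, so that this difference and its r are limited by values near background. The family thus contained genes that varied with the 9 members and genes that did not.

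Of 14 other interstitial collagens, 14 were tested, 12 were lower and 2 higher in MS mice, and 0 passed the threshold (median log2 difference -0.16). Control 8.4 had a list score of 0.60, against at most 0.14 in the other animals, and without it 10 of 14 were lower with a median of -0.07. The lowest r of the list with the score of the 9 genes was that of Col5a3, -0.28. Col12a1, which decorates the surface of collagen I fibrils, had r = 0.78, and the collagen VI chain Col6a2 had 0.68. The other collagen VI chains listed had 0.01 (Col6a1) and 0.35 (Col6a3). Without control 8.4 these values were 0.78 for Col12a1, 0.66 for Col6a2 and -0.56 for Col6a1, and that of Col11a1 (collagen XI) went from 0.51 to 0.80. Of genes that process collagen, 26 of 28 were tested, and 19 were lower, 7 higher and 0 past the threshold. Pcolce, which enhances the removal of the procollagen C-propeptide, and Adamts2, which removes the N-propeptide, had r of 0.99 each, with SDs of 0.72 and 0.97. Bmp1, the protease that Pcolce enhances, had r = -0.42 and an SD of 0.06. The lowest r of the list was that of Plod2, -0.58, with an SD of 0.23. Over the 26 genes 2 had an r of at least 0.9. Of matrix proteases and their inhibitors 10 of 14 were tested, with 3 higher, 7 lower and 0 past the threshold. The inhibitor Timp1 had r = 0.90 and an SD of 0.92, and Timp2 had -0.32.

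Genes of basement membranes (15 of 16 tested, 6 higher, 9 lower, 0 past the threshold) included Lama1, the laminin chain of the pial membrane, with r = 0.97 and an SD of 0.40. Lama4 had r = 0.93 with an SD of 0.08, and the lowest r were those of Col4a6 (-0.36) and Lamb1 (-0.35). Of general fibroblast genes 21 of 24 were tested, 7 higher and 14 lower, and 0 passed the adjusted threshold. Fibronectin (Fn1) had r = 0.98 with an SD of 0.42, and the complement inhibitor Serping1 had 0.97 with 0.85. The lowest r of this list were those of Igfbp4 (-0.59) and Fbln2 (-0.20). Unadjusted p values under 0.05 were found for 4 fibroblast genes, beside 2.39% of all tested probes. Eln and Igfbp5 had log2 differences of -0.29 and -0.22, and Cd34 and Sfrp1 had 0.32 each. Their r with the score of the 9 genes was 0.47 and 0.02, and 0.03 and 0.27. Of genes of TGF-beta signalling, which induces collagen synthesis in fibroblasts, 18 of 18 were tested, 6 higher, 12 lower and 0 past the threshold. Its receptor Tgfbr2 had r = 0.91 and its target Tgfbi 0.89, and the latent binding protein Ltbp1 had -0.60.

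Other markers of leptomeningeal cells, most of them no matrix genes (Mgp, Efemp1 and Lamc3 encode matrix proteins), were read beside the 9 genes. Of 25 such markers 22 were tested, 17 had an r of at least 0.9 with the score of the 9 genes, and 20 had the same 3 lowest animals. The score of the list had r = 0.98 with that of the matrix genes over the 8 animals. It was 0.26, 0.42, 0.62 and -0.78 in controls 6.2, 8.2, 8.4 and 8.5, and -1.01, 0.40, -0.50 and 0.60 in MS 5.3, 7.1, 7.2 and 7.6. Their summed level, as a ratio to the 75th percentile of the array, ran from 102 to 301 in controls and from 102 to 327 in MS mice. Most of it was Ptgds, the prostaglandin D synthase, and without this gene the sums ran from 18.2 to 49.7 in controls and from 14.4 to 45.9 in MS mice. The transporters Slc13a4 and Slc6a20a had r of 0.99 each with the score of the 9 genes, and the transcription factors Zic1 and Zic4 the lowest of the list, 0.64 and 0.66. Of the 22 markers 21 were lower in MS mice, with a median of -0.25 and 0 past the threshold, and without MS 5.3 11 of 22 were lower with a median of 0.01. In these arrays the 9 genes varied together with most of the other listed leptomeningeal markers. Both sets were chosen with earlier results of the same arrays known, so this describes the data and is no independent check of the label. The part of an unequal amount of meningeal tissue in the samples was not tested.

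Macrophages of the brain borders, which live beside these fibroblasts, had a list score with r = 0.94 (7 of 8 genes tested, 3 higher, 4 lower, 0 past the threshold). The mannose receptor Mrc1 had r = 0.96, Cbr2 0.93 and the hyaluronan receptor Lyve1 0.90. The lowest r of the list were those of Pf4 (0.81) and Ms4a7 (0.83), and the range of the list score over animals was 1.40. Their summed level ran from 1.94 to 3.07 in controls and from 1.50 to 3.49 in MS mice, and the marker Cd163 reached no signal well above background in any animal. Endothelial genes also had a high r for the list score (0.89), but a range of 0.24 (12 of 12 tested, 6 higher, 6 lower, 0 past the threshold), and mural cell genes, of pericytes and smooth muscle, had 0.37 and a range of 0.43 (15 of 16 tested, 3 higher, 12 lower, 0 past the threshold). Within the mural list the peptidase Anpep (0.95) and vitronectin (Vtn, 0.89) had a high r. The lowest r of that list were those of Mylk (-0.52) and the receptor Notch3 (-0.38). The score of the 9 matrix genes had a range of 2.65, but these genes were selected on wide spread and co-variation. A mean score also narrows when the genes of a list vary less together. The median r between genes was 0.25 in the endothelial and 0.17 in the mural list. The ranges of the vessel lists and of the matrix genes are therefore not a like comparison.

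Choroid plexus genes (7 of 9 tested, 4 higher, 3 lower) had r = 0.09, and red blood cell genes (4 of 5 tested, 0 higher, 4 lower) had 0.14. Striatal neuron genes (11 of 11 tested, 0 higher, 11 lower) had 0.16, and olfactory bulb genes (7 of 8 tested, 0 higher, 7 lower) had 0.28. The olfactory bulb score was high in control 8.4 (2.69), MS 7.6 (1.45) and control 8.5 (0.86), of which the first and second were high and the last low in the matrix genes. Cortical neuron genes (10 of 10 tested, 9 higher, 1 lower) had -0.43, astrocyte genes (6 of 6 tested, 2 higher, 4 lower) 0.48 and oligodendrocyte genes (6 of 6 tested, 1 higher, 5 lower) 0.23, and 0 genes of any of these lists passed the threshold. Without control 8.4 the r of the striatal list was -0.60 and that of the choroid plexus list -0.41, so these were set by that animal, while that of the leptomeningeal list was 0.99. The counts of lower genes also depended on control 8.4. Without it 6 of 11 striatal, 2 of 7 olfactory bulb and 1 of 6 oligodendrocyte genes were lower in MS mice. Of the cortical neuron genes 4 of 10 were then lower, and of the red blood cell genes still 4 of 4.

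**Figure D5:**
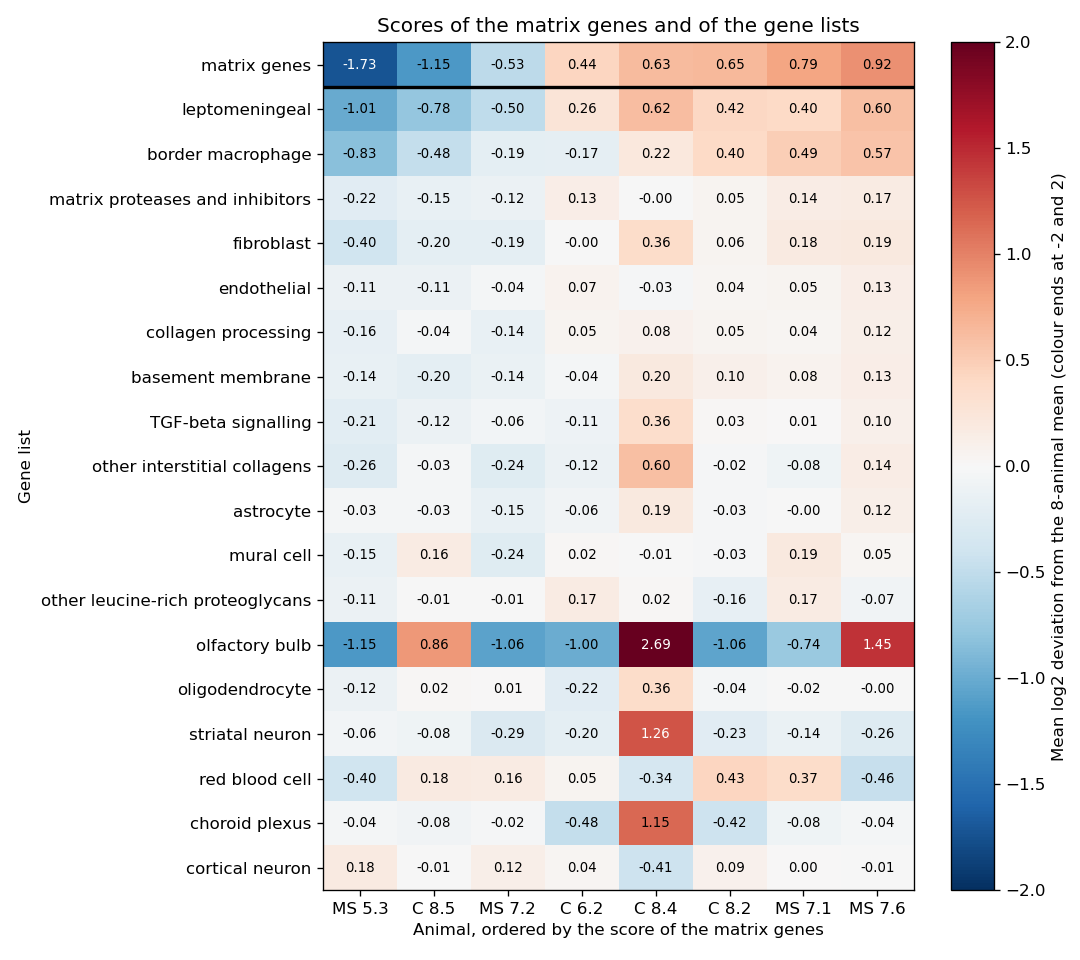
Score (mean log2 deviation from the mean of the 8 animals, printed and coloured) of the 9 matrix genes and of 18 gene lists (vertical axis) in each animal (horizontal axis, ordered by the score of the matrix genes, C for control). The leptomeningeal list runs from -1.01 to 0.60 in MS mice and follows the order of the matrix genes closely, while the olfactory bulb and striatal lists stand out in control 8.4.

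Of the other named genes, 2031 had a signal well above background in every animal and an SD of at least 0.3. Among these, 105 (5.17%) had an r of at least 0.9 with the score of the 9 genes, and the median was 0.17. The 15 with the highest r ran from 0.98 to 0.99. They held 4 of the leptomeningeal list (Slc13a4, Slc6a20a, Slc22a6 and Aldh1a2) and 2 of the collagen processing list (Pcolce and Adamts2). The others were the transcription factor Tfap2b, the growth factor Bmp4, Aebp1, Serpind1 (heparin cofactor II), the collagen receptor Mrc2, the organic cation transporter Slc22a2, the antigen presentation gene H2-DMb1, Pdzk1ip1 and complement C2. All 15 had their lowest level in MS 5.3, which follows largely from their choice by r with a score that is lowest in that animal. Between groups 0 of them passed the threshold. Slc13a4 had 2.07, 2.28, 2.37 and 0.13 in controls 6.2, 8.2, 8.4 and 8.5, and -0.09, 2.55, 1.09 and 2.48 in MS 5.3, 7.1, 7.2 and 7.6. As for Ogn, control 8.5 and MS 5.3 were the lowest, and MS 7.2 lay between them and the rest. Bmp4 had 0.68, 0.66, 0.78 and -0.89 in the same controls and -1.16, 0.58, -0.20 and 0.98 in the same MS mice. At the other end, an r of -0.93 to -0.80 was found for Acsbg3, Slurp1, Sycp3, Kcng1 and Wfikkn1, whose SDs ran from 0.31 to 0.83. Slurp1 was highest in MS 5.3, at -2.20, and lay between -4.66 and -3.43 in the other 7 animals.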

How the data were processed

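The mPFC of 8 mice, 4 control and 4 MS, was measured with 1 array per mouse, and the labels gave groups and animal numbers. RNA (200 ng) was labelled with Cy3. The scanner files hold intensity values of spots from which the authors' scanner software (Feature Extraction, version 10.10.1.1) had subtracted the background, without scaling between arrays. Headers name array design 28005, which differs from the number in the methods, and place probes on mm9. A deposited table of log2 values, normalised by the authors, was used as an alternative. Its columns have medians of 8.53, and the sources used here do not say how its 34137 probes were picked.

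Control spots (3671 per array) and spots marked as outliers were left out. Processed signals were put on the log2 scale and centred on the 75th percentile of each array. Testing required a signal well above background in all 4 animals of 1 group or of both, which left 34098 of 55681 probes. MS and control were compared with limma 3.58.1 in R 4.3.3 (lmFit and eBayes, no covariate, two-sided), adjusted by Benjamini-Hochberg at 0.05 over all tested probes, and the fit was tested on simulated data. Each gene was represented by its brightest tested probe. Python 3.11.15 with matplotlib 3.10.9 drew the figures.

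The 9 members and the gene lists were chosen with earlier results of these data known. Beside the members, named genes were the 2 highest and 2 lowest of each list by r with the score of the members, and the 15 highest and 5 lowest among all named genes with a signal well above background in every animal and an SD of at least 0.3. Of the 72 list genes that this rule names, the text gives mainly those of the matrix, fibroblast, meningeal and mural lists, and most of the others are not reported. Bgn, Col5a2, Col6a3, Col11a1, Ptgds, Mgp, Efemp1, Lamc3, Lyve1, Cd163, Eln, Cd34, Igfbp5 and Sfrp1 were added after their values were seen. Symbols came from RefSeq (GRCm38.p6) where the accession or name matched. Whether a probe lies in a coding exon or a UTR was not analysed here, and 1 probe sequence is not reported here. The number before the point is shared by 3 controls and by 3 MS mice, and the sources used here do not explain it. Should it stand for a litter, mice with 1 number need not be independent, which the main comparison does not model. Alternatives were the background correction, the scaling, the filter, outlier spots, slide row, that number as a random block, the probe rule, and leaving out each animal.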

Additional observations from a re-analysis of the deposited data

Results flagged for a closer look

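In groups of 4 animals, a sample was singled out when the gap between it and its nearest neighbour took a larger share of the range of the group than Dixon's critical value at 95% allows. Of 56 groups examined, 8 held such a sample. Chance alone gives about 1 in 20 groups where nothing was selected. Here the members had been selected on wide spread between these animals, and the lists with earlier results known. The count is therefore a description and cannot be held against that rate. Control 8.5 was singled out as the lowest control for Omd (gap over range 0.953), Prg4 (0.865), Col1a1 (0.904) and the score of the 9 matrix genes (0.884). These 4 are not separate, because the genes vary together and the score contains them. Control 8.4 was singled out as the highest control for the scores of the other interstitial collagens (0.860), the striatal neuron genes (0.905) and the astrocyte genes (0.862). MS 7.6 was singled out as the highest MS mouse for the olfactory bulb genes (0.840). The part of the dissection in these values was not tested.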

How the results depend on the processing

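In each of 17 refits over all tested probes 0 passed the threshold. The median r between the members stayed between 0.86 and 0.94 in the 17 alternatives in which it was computed, over 21 pairs where a probe had to be well above background on all arrays and over 36 otherwise. The 3 lowest animals by the score, and their order, were the same with normexp, median scaling, quantile normalisation and the log2 table of the authors. The range of the score was 2.65, 1.74 with normexp background correction and 1.94 in the log2 table of the authors. It was 2.16 over the 7 members well above background on all arrays, which leaves out Omd and Prg4. It was 1.45 without control 8.5 and MS 5.3, a choice made after the data were seen. Leaving out 1 animal gave 2.07 to 2.65. The direction between groups depended on single animals. The median log2 difference of -0.26 ranged from -0.71 (without control 8.5) to 0.09 (without MS 5.3), and was -0.09 within slide row 1 and -0.43 within row 2 (added after the data were seen), -0.09 without both low animals, and -0.05 with the number before the point as a random block. Leaving out 1 animal at a time gave -0.57 to 0.0728 for Dcn, -0.53 to 0.0915 for Lum, -1.02 to 0.49 for Ogn, -0.98 to 0.49 for Omd, -0.71 to 0.37 for Fmod, -1.40 to 0.82 for Prg4, -0.68 to -0.02 for Col1a1, -0.38 to 0.0758 for Col1a2 and -0.81 to -0.13 for Col3a1. For each of the 9 members the highest value came without MS 5.3. The sign also turned for Prg4 without control 6.2 (0.16), 8.2 (0.11) or 8.4 (0.35), for Ogn without control 8.2 (0.0560) or 8.4 (0.00567), and for Col1a2 without MS 5.3 (0.0758) or MS 7.2 (0.00879). With the number before the point as a random block it turned for Ogn (0.0569), Omd (0.00213), Fmod (0.000544) and Prg4 (0.32), at an estimated correlation of -0.22. No other alternative turned a sign, but sizes changed. With normexp and in the log2 table of the authors, Omd went from -0.40 to -0.04 and -0.06. Lum went from -0.21 to -0.08 and -0.10, while Prg4 went from -0.19 to -0.24 and -0.23. Omd and Prg4 could not be fitted when a probe had to be well above background on all arrays. No paired analysis was possible because controls and MS mice share no animal number. Signal near background limits Omd in MS 5.3 and Prg4 in control 8.5, which are bounds.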
